A study of Danio rerio with 6 samples.

Results

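A set of 4 genes of antigen presentation were followed across 6 RNA-seq libraries of zebrafish (Danio rerio) cells. They are b2m (ENSDARG00000053136), cd74a (ENSDARG00000009087), cd74b (ENSDARG00000036628) and mhc2dab (ENSDARG00000079105), and they make up 4 of the 27726 genes listed. They were picked by identifier, because their measured levels were lower in mutants, so their genotype difference is described here and not tested. All 4 passed the filter on low values that left 20463 genes.

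The cells were sorted by flow cytometry for red fluorescence from a sox10:dsRed reporter, in larvae aged 6 days after fertilization. The sox10 gene is active in the neural crest, the embryonic source of pigment cells, peripheral glia and facial cartilage. The groups were 3 libraries from Shoc2-/- larvae, which carry a CRISPR/Cas9-made mutation, and 3 libraries from wild-type (WT) larvae. Both groups carried the reporter, which drives dsRed wherever the sox10 sequence used is active, so the gate can hold more than neural crest derivatives. The labels do not say how many larvae or clutches made a library, so the spread between libraries may be partly technical.

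The study asked which transcripts change in these cells without shoc2, a scaffold of RAS-ERK signalling. Each library held between 20088591 and 21802683 reads. SOX10 transcript itself was abundant, with 13953, 30211 and 27904 normalized counts in the Shoc2-/- libraries and 25782, 8573 and 14619.8 in the WT libraries, and the groups overlapped. The shoc2 transcript was still read in the mutants, at 844, 798 and 673 normalized counts in Shoc2-/- against 1194, 959 and 1083 in WT. The groups did not overlap, but the exact two-sided permutation p was 0.1, the smallest that 3 against 3 libraries allow. In limma the log2 fold change was -0.48 (SE 0.147), with an unadjusted p of 0.00967. Adjusted over all genes tested, the limma p was 0.636. A CRISPR mutation need not remove the transcript, so the transcript level is a limited check of the labels.

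MHC molecules display peptides at the cell surface for T cells. Class I molecules are found on most cells, carry peptides cut by the proteasome and pumped into the endoplasmic reticulum by the TAP transporter, and need the light chain beta-2 microglobulin. Class II molecules are found mainly on macrophages, dendritic cells and B cells, pair an alpha with a beta chain, and travel to endosomes bound to the invariant chain CD74. In mammals, interferon gamma raises both routes, through the coactivator NLRC5 for class I and CIITA for class II.

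b2m encodes the light chain of class I. Its values were 92.8, 99.6 and 82.0 normalized counts in the Shoc2-/- libraries and 507, 369 and 790.4 in the WT libraries, where a normalized count is a read count divided by the size factor of its library. All mutant values lay below all WT values, and the lowest WT library was 3.71 times the highest mutant library. The means were 91.5 ± 8.85 in Shoc2-/- and 556 ± 215 in WT (SD, n = 3 each), so the mutants stood at 16.5% of WT. On the scale of log2(normalized count + 1) the difference was -2.52 (SE 0.274). Mutant libraries were close together for this gene, with a highest value 1.21 times the lowest, while in WT that ratio was 2.14.

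cd74a and cd74b encode the paralogous zebrafish invariant chains. cd74a had 57.0, 124 and 24.2 normalized counts in Shoc2-/- against 1079, 546 and 1627 in WT. This was the widest gap of the 4 genes: mutants averaged 68.5 ± 51.0 and WT 1084 ± 541 (SD, n = 3 each), which is 6.32% of WT, and the log2 fold change was -4.12 (SE 0.566). It was also the gene with the least even mutant libraries, the highest being 5.13 times the lowest. The log2 fold change of cd74a was -4.69 without Shoc2-/- replicate 2, the library with the highest mutant value, and -3.53 without Shoc2-/- replicate 3, the library with the lowest.

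cd74b had 48.3, 66.7 and 42.9 normalized counts in Shoc2-/- and 455, 239 and 700.5 in WT. The groups were apart here too, with mutants at 11.3% of WT and a log2 fold change of -3.01 (SE 0.376). Within each genotype the libraries ranked in the same order as for cd74a.

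mhc2dab, which encodes a class II beta chain, had 16.4, 32.8 and 17.7 normalized counts in Shoc2-/- and 119, 55.9 and 134 in WT. Its groups came closest to each other, since the lowest WT library was 1.7 times the highest mutant one. Means were 22.3 ± 9.13 in Shoc2-/- and 103 ± 41.6 in WT (SD, n = 3 each), with a log2 fold change of -2.13 (SE 0.439). The smallest number of reads behind any value of the 4 genes was 17, for this gene in Shoc2-/- replicate 1. In a mixed sort, fewer cells of a type and less RNA per cell cannot be told apart, and this holds for every level given here.

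**Figure D1:**
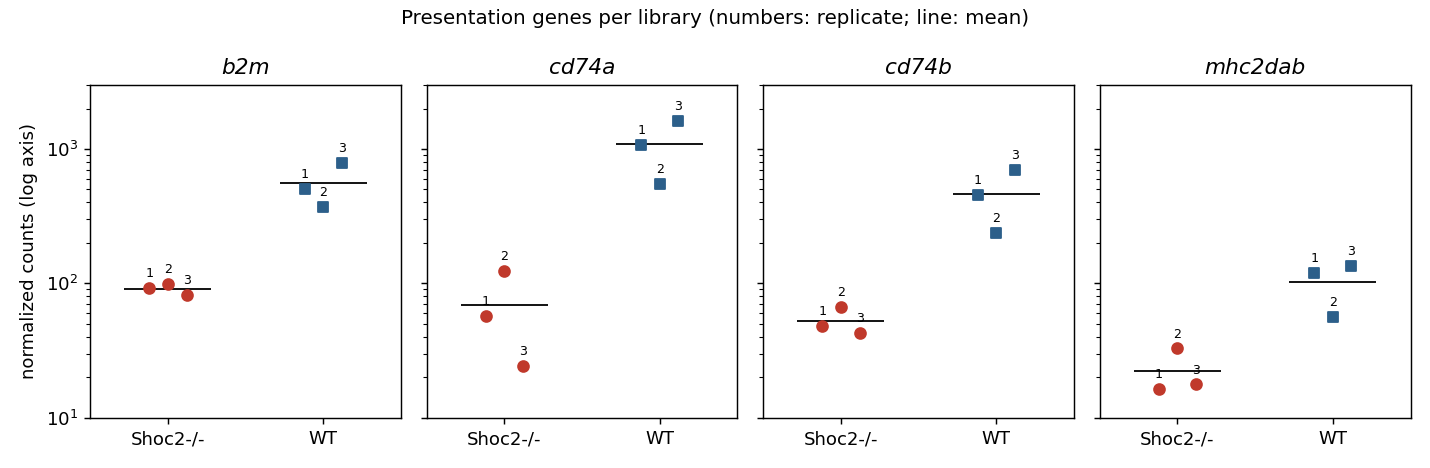
Normalized counts (log axis) of the 4 genes in each library, with circles for Shoc2-/-, squares for WT, replicate numbers beside the points and a line at each mean. No mutant library reached a WT library in any of the 4 genes; cd74a shows the widest gap and mhc2dab the narrowest.

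The libraries of a genotype also differed from each other in a shared way, which the choice of the genes did not use. In WT, replicate 3 was highest, replicate 1 next and replicate 2 lowest for all 4 genes. In Shoc2-/-, replicate 2 was highest for all 4, as it was for 9 of 9 pan-leukocyte genes and 30.1% of all genes tested. It was highest for 31.2% of class I genes, 58.8% of other class II genes and 57.1% of genes of other tissues. The share was 71.4% for neutrophil, 62.5% for lymphocyte, 61.1% for macrophage and dendritic, 45.5% for interferon and 37.5% for sox10 lineage genes. Shoc2-/- replicate 1 was lowest for 1 of the 4 and for 31.8% of all genes. It was lowest for 88.9% of pan-leukocyte, 94.4% of macrophage and dendritic and 100% of neutrophil genes. Deviations from the genotype means, on the log2 scale over the 6 libraries, correlated between 0.735 (b2m with cd74a) and 0.962 (b2m with cd74b) among the 6 pairs of genes. These are descriptions over 6 libraries with only 4 free deviations, and all pairs share the same libraries. That WT order, read from the 4 genes, was found in 12.6% of all 20463 genes tested. By list, it was found in 83.3% of the 18 macrophage and dendritic genes, 64.7% of the 17 other class II genes, 62.5% of the 8 lymphocyte genes, 45.5% of the 22 interferon genes and 43.8% of the 32 class I genes. It was found in 28.6% of the 7 neutrophil genes and 22.2% of the 9 pan-leukocyte genes. For the 14 genes of other tissues the share was 21.4%, and for the 32 sox10 lineage genes 3.12%.

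Across all genes tested, limma with Benjamini-Hochberg adjustment called 1 gene lower (0.00489% of genes) and 0 higher in Shoc2-/- at an adjusted p under 0.05. The called gene, si:ch211-183d5.2, had 27.1, 24.6 and 18.6 normalized counts in Shoc2-/- and 284, 249 and 539 in WT. At an unadjusted p under 0.05, 596 genes were lower (2.91%) and 590 higher (2.88%). The 3 mutant values lay below the 3 WT values in 5.28% of genes and above them in 5.29%. In 216 genes (1.06%) they lay below and the mutant mean was also at least 2-fold lower. All 4 presentation genes are of that kind, which is how they were picked, so nothing is read from their count. On the recovered reads, edgeR's quasi-likelihood test called 0 genes, and DESeq2 called 0.528% lower and 0.23% higher. Counts of genes in the groups below are to be read against these shares, and over all genes the median difference was 0.01 (log2).

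The rest of the class II route was examined first. Of 28 further class II genes, 17 could be tested and none passed the limma adjusted threshold; 7 were lower at an unadjusted p under 0.05, edgeR called 0 and DESeq2 called 6, all lower. Mutant and WT libraries were apart in 7 genes (41.2%), all lower in Shoc2-/-, and the median log2 fold change was -0.99. Among them, mhc2dga passed the filter on low values through its WT libraries alone and so had to differ; without it, 6 of 16 genes were apart, DESeq2 called 5 and the median was -0.76. By role, 2 of 3 chain genes besides mhc2dga, 1 of 7 endosomal protease genes and 1 of 4 regulator genes were lower in Shoc2-/- without overlap.

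Among the class II chains, mhc2daa, an alpha chain gene, had 44.5, 58.5 and 16.8 normalized counts in Shoc2-/- against 397, 168 and 573 in WT. The log2 difference of -3.22 (SE 0.539) had adjusted p-values of 0.209 in limma and 4.07e-08 in DESeq2. mhc2dhb, a beta chain gene, had 19.3, 30.8 and 6.52 in Shoc2-/- and 184, 102 and 248 in WT, a log2 difference of -3.31 at an adjusted p of 0.209 by limma. Neither passed limma, and in both every WT library was above every mutant one. mhc2dga was at 5.8, 8.21 and 3.73 in Shoc2-/- and 56.7, 16.9 and 91.0 in WT. Its neighbour mhc2dgb was too low to be tested, with 0.967, 1.03 and 0 in Shoc2-/- and 26.0, 6.33 and 45.5 in WT. These 4 chain genes follow each other in the RefSeq annotation of zebrafish assembly GRCz12tu, whereas b2m, cd74a and cd74b lie on 3 different chromosomes there. mhc2dab was not matched in that annotation, so whether it lies near these chain genes is not known here. MHC genes come in near-identical copies that vary between fish, and how reads shared by copies were counted is not given, so levels of single MHC chain genes are uncertain.

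ciita, the class II transactivator, had 18.4, 19.5 and 31.7 normalized counts in Shoc2-/- against 60.6, 48.6 and 97.0 in WT. The groups did not overlap, and the log2 fold change of -1.51 (SE 0.397) had a limma adjusted p of 0.518 and a DESeq2 adjusted p of 0.0796. rfx5 and RFXAP, subunits of the RFX complex that binds class II promoters, had log2 fold changes of -0.03 and -0.06, with overlapping groups. RFXANK, another subunit, had 5.8, 10.3 and 50.3 in Shoc2-/- and 32.7, 24.3 and 36.4 in WT. Its log2 fold change was -1.01, and its groups overlapped too. cd40 and cd83 encode surface proteins of activated antigen-presenting cells. cd40 had 237, 142 and 171 normalized counts in Shoc2-/- and 481, 311 and 712 in WT, and cd83 had 196, 347 and 189 in Shoc2-/- and 674, 476 and 1399.9 in WT. Neither gene overlapped between groups, and their limma adjusted p-values were 0.367 and 0.372. Of 7 endosomal protease genes, CTSH (cathepsin H) was the 1 without overlap, at a log2 difference of -0.99 and an adjusted p of 0.518 by limma. ctss2.1, a cathepsin S gene whose product in mammals trims the invariant chain, averaged 204 ± 98.7 in Shoc2-/- and 206 ± 126 in WT (SD, n = 3 each).

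**Figure D2:**
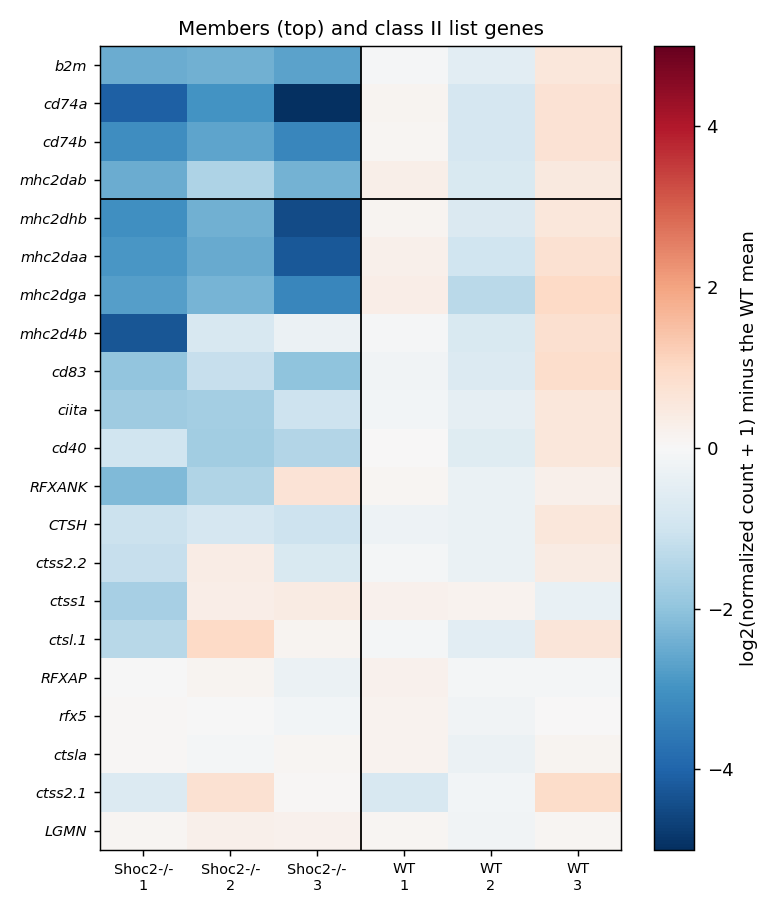
Each cell is log2(normalized count + 1) minus the WT mean of that gene, with the 3 Shoc2-/- libraries left and the 3 WT libraries right; the first 4 rows are b2m, cd74a, cd74b and mhc2dab, and the 17 other class II genes tested follow by their mutant mean. Class II chains, ciita, cd40 and cd83 are blue in every mutant library except for mhc2d4b, which is closer to WT in Shoc2-/- replicates 2 and 3, and rfx5, RFXAP, ctsla and LGMN stay near white.

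For class I, 43 further genes were identified and 32 tested, with none past the limma adjusted threshold. At an unadjusted p under 0.05, 12 were lower and 1 higher; edgeR called 0 and DESeq2 called 8, all lower. The groups were apart in 16 genes, 15 lower (46.9%) and 1 higher, around a median log2 fold change of -0.34. Among the lower ones, psmb13a passed the filter through its WT libraries alone and so had to differ; without it, 14 of 31 genes were lower without overlap and DESeq2 called 7. Of 6 genes of the immunoproteasome and its PA28 activator besides psmb13a, 5 were lower without overlap, with a median log2 fold change of -1.31. Of 10 heavy chain genes tested, 2 were lower without overlap and the median was -0.14. The 5 chaperone genes, which fold class I in the endoplasmic reticulum among many other proteins, had log2 fold changes between 0.03 and 0.30, and 1 of them, PDIA3, was higher without overlap.

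tap2a, which encodes a chain of the peptide transporter, had 10.6, 27.7 and 16.8 normalized counts in Shoc2-/- against 106, 64.4 and 124 in WT (log2 fold change -2.40, SE 0.435, limma adjusted p 0.245). TAP1, the partner chain, had 87.0, 119 and 156 in Shoc2-/- and 235, 211 and 355 in WT, a log2 difference of -1.14 at an adjusted p of 0.461 by limma. Both genes were lower in every mutant library, tap2a by the wider margin. A further tap2 gene, tap2t, had 247, 259.7 and 380.3 in Shoc2-/- and 341, 334 and 384 in WT. Its groups overlapped, at a log2 fold change of -0.28. Of 6 genes of peptide transport and tapasin tested, 3 were lower without overlap.

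PSMB9, a catalytic subunit that replaces a constitutive one in the immunoproteasome, had 11.6, 13.3 and 12.1 normalized counts in Shoc2-/- and 55.8, 31.7 and 47.5 in WT, with a limma adjusted p of 0.402. PSME2, the beta subunit of PA28, had 64.8, 88.3 and 63.4 in Shoc2-/- and 195, 147 and 249.7 in WT, a log2 difference of -1.42 (SE 0.271) at an adjusted p of 0.293 by limma. PSMB8 averaged 9.48 ± 8.33 in Shoc2-/- and 59.3 ± 37.4 in WT, and psmb13a averaged 4.57 ± 1.63 in Shoc2-/- and 37.4 ± 21.2 in WT (SD, n = 3 each). In the RefSeq annotation the span of psmb13a overlaps those of psmb8a, psmb12, psmb9a and tap2a, so reads may be shared among these genes. The constitutive subunits PSMB5, PSMB6 and PSMB7, which the immune subunits replace, had log2 fold changes of -0.06, 0.11 and 0.08, and PSME3, another proteasome activator, had -0.03. These 4 genes were added for comparison after their values were seen, and their groups overlapped.

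**Figure D3:**
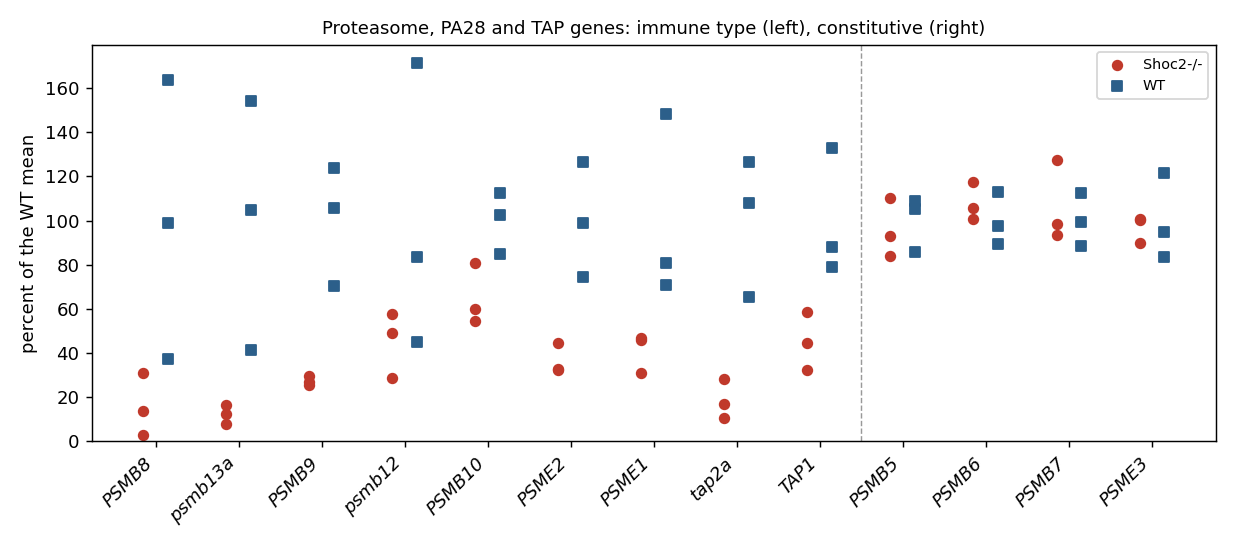
Each point is 1 library as a percent of the WT mean of that gene, with circles for Shoc2-/- and squares for WT. Of the 9 genes left of the dashed line, 8 had mutant libraries all below WT (among them psmb13a, which passed the filter through WT only) and psmb12 overlapped; the 4 constitutive genes to the right lie around 100 in both groups.

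Among class I heavy chains, mhc1uca had 22.2, 9.24 and 27.0 normalized counts in Shoc2-/- and 90.4, 51.7 and 135 in WT (log2 fold change -2.21, SE 0.502, limma adjusted p 0.372). The abundant mhc1zba was also lower in every mutant library, but by less: 1056, 1197 and 1250.0 in Shoc2-/- against 1295, 1268 and 1883 in WT, a log2 fold change of -0.32. mhc1uba was too low to be tested, with 2.9, 0 and 0.932 in Shoc2-/- and 16.3, 8.45 and 35.4 in WT. b2ml, a second beta-2 microglobulin-like gene, had 3511, 3811 and 4415 in Shoc2-/- and 5527, 4747 and 4482 in WT. The b2ml groups were close to each other, and its log2 fold change of -0.33 (SE 0.134, limma adjusted p 0.806) stands beside -2.52 for b2m. nlrc5, the class I coactivator, was near the floor of 3 reads in mutants, with 0.967, 2.05 and 0 normalized counts in Shoc2-/- and 6.73, 4.22 and 14.2 in WT, and was not tested.

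Interferon signalling was examined because it governs both routes in mammals. Of 27 genes identified, 22 were tested and none passed the limma adjusted threshold; 6 were lower and 0 higher at an unadjusted p under 0.05, edgeR called 0, and DESeq2 called 2, both lower. Groups were apart in 5 genes (22.7%), all lower, and the median log2 fold change was -0.19. The 2 genes with the widest gap are effectors. isg15, a ubiquitin-like protein, had 95.7, 130.4 and 24.2 normalized counts in Shoc2-/- against 875, 414 and 1597 in WT (log2 fold change -3.61, SE 0.638, limma adjusted p 0.227). mxc, an antiviral GTPase of the Mx family, had 51.2, 52.4 and 32.6 in Shoc2-/- and 501, 198 and 509 in WT (log2 fold change -3.03, SE 0.387, limma adjusted p 0.101, DESeq2 adjusted p 1.38e-12). In both, the lowest WT library stood above every mutant one.

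Other genes of this group differed less. gbp1, an interferon-induced GTPase, averaged 98.3 ± 20.8 in Shoc2-/- and 161 ± 40.6 in WT, and IRF8, a transcription factor of macrophages and interferon responses, averaged 193 ± 23.1 in Shoc2-/- and 336 ± 142 in WT (SD, n = 3 each), with limma adjusted p-values of 0.795 and 0.823. The 7 receptor and kinase genes had a median log2 fold change of -0.13. RSAD2, known for antiviral action, overlapped between groups and averaged 137 ± 50.7 in Shoc2-/- and 125 ± 85.1 in WT (SD, n = 3 each). ifng1, which encodes interferon gamma, had no read in any library. ifng1r, also on the interferon list, had 5.59 normalized counts in Shoc2-/- replicate 3 and no read in any other library, and was not tested.

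Since class II genes and cd74 mark leukocytes, markers of these cells were set beside them. All 9 pan-leukocyte genes were read in every library. Their summed level was 1906, 4023 and 2609 normalized counts in Shoc2-/- and 2653, 3232 and 4587 in WT. The groups overlapped, the mutant mean was 0.815 times the WT mean, and the exact two-sided permutation p was 0.5. Gene by gene, all 9 had a log2 fold change below 0, between -0.49 and -0.1, with a median of -0.38. Mutant and WT libraries overlapped in each of the 9. Of 42 leukocyte genes tested in 4 lists, 0 passed limma's adjusted threshold, 3 were lower at an unadjusted p under 0.05, edgeR and DESeq2 called 0 each, and 3 were lower without overlap (7.14%). ptprc, which encodes the pan-leukocyte surface protein CD45, had 186, 486 and 323 normalized counts in Shoc2-/- and 262, 338 and 544 in WT.

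The libraries were not alike in these markers. The pan-leukocyte sum of Shoc2-/- replicate 2 was 115% of the WT mean, above WT replicates 1 and 2, while cd74a in that library was at 11.5%, cd74b at 14.4%, b2m at 17.9% and mhc2dab at 31.8% of the WT mean. The lymphocyte sum of that library was at 71.7% of the WT mean. Its macrophage and dendritic sum was at 172%, most of it from apoeb, and at 119% without that gene. In Shoc2-/- replicate 1 the pan-leukocyte sum was at 54.6% and in replicate 3 at 74.7%. Without Shoc2-/- replicate 2 the ratio of the sums was 0.647. With that library left out, 13 of the 42 leukocyte genes (31%) were lower without overlap, beside 9.12% of all genes. Without WT replicate 1 the count was 5 (11.9%), beside 11% of all genes, and without WT replicate 2 it was 6 (14.3%), beside 9.12%. With any other library left out the count was 3 (7.14%), beside 9.38% to 11.8% of all genes.

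By cell type, the 18 macrophage and dendritic genes tested had a median log2 fold change of -0.01, and none was apart between groups. The MPEG1 entry with the higher counts (ENSDARG00000055290), a perforin-like gene of macrophages, had 85.1, 288 and 182 normalized counts in Shoc2-/- and 217, 208 and 269 in WT. The other MPEG1 entry tested (ENSDARG00000043093) had 105, 147 and 215 in Shoc2-/- and 159.6, 85.5 and 186 in WT. Their log2 fold changes were -0.48 and 0.13, in that order. csf1ra, in the same list, is also expressed by yellow pigment cells. The 7 neutrophil genes had a median of -0.09, also without a gene apart. In the lymphocyte list, 3 of 8 were lower without overlap, the median was -0.92, and the summed level was 373, 524 and 405 in Shoc2-/- against 640.5, 480.3 and 1070.4 in WT. lck, a T cell kinase, averaged 31.5 ± 16.2 in Shoc2-/- and 82.6 ± 30.8 in WT, and ZAP70, another one, 23.7 ± 3.78 in Shoc2-/- and 50.5 ± 6.46 in WT (SD, n = 3 each), with limma adjusted p-values of 0.652 and 0.649. RAG2 was also lower without overlap, at a log2 fold change of -1.13 (SE 0.472, limma adjusted p 0.823). RAG1, in the same list, overlapped between groups, at a log2 fold change of -0.84 (SE 0.374, limma adjusted p 0.858). Of the 8 lymphocyte genes tested, 7 had a log2 fold change below 0. PAX5, listed as a lymphocyte gene, had 0.41 with overlapping groups. The B cell genes cd79a and cd79b were too low to be tested, and their groups overlapped. cd79a averaged 17.9 normalized counts in Shoc2-/- and 6.39 in WT, and cd79b averaged 0.342 in Shoc2-/- and 2.34 in WT. The part of these leukocyte markers in the levels of the 4 presentation genes was not tested.

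**Figure D4:**
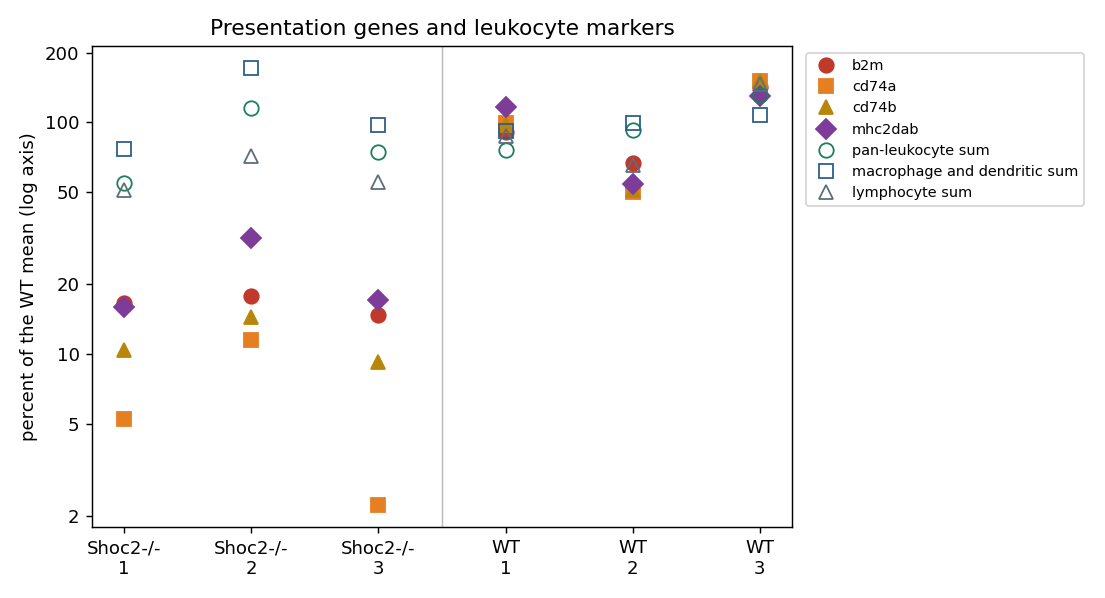
Percent of the WT mean (log axis) in each library, with the 3 Shoc2-/- libraries left of the line; filled symbols are the 4 presentation genes and open symbols are summed marker levels. In Shoc2-/- replicate 2 the pan-leukocyte, macrophage and lymphocyte sums lie at 115, 172 and 71.7, and the 4 genes lie between 11.5 and 31.8. Most of that macrophage sum comes from apoeb, without which it is at 119. The pan-leukocyte sum lies at 54.6 in Shoc2-/- replicate 1 and at 74.7 in replicate 3.

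**Figure D5:**
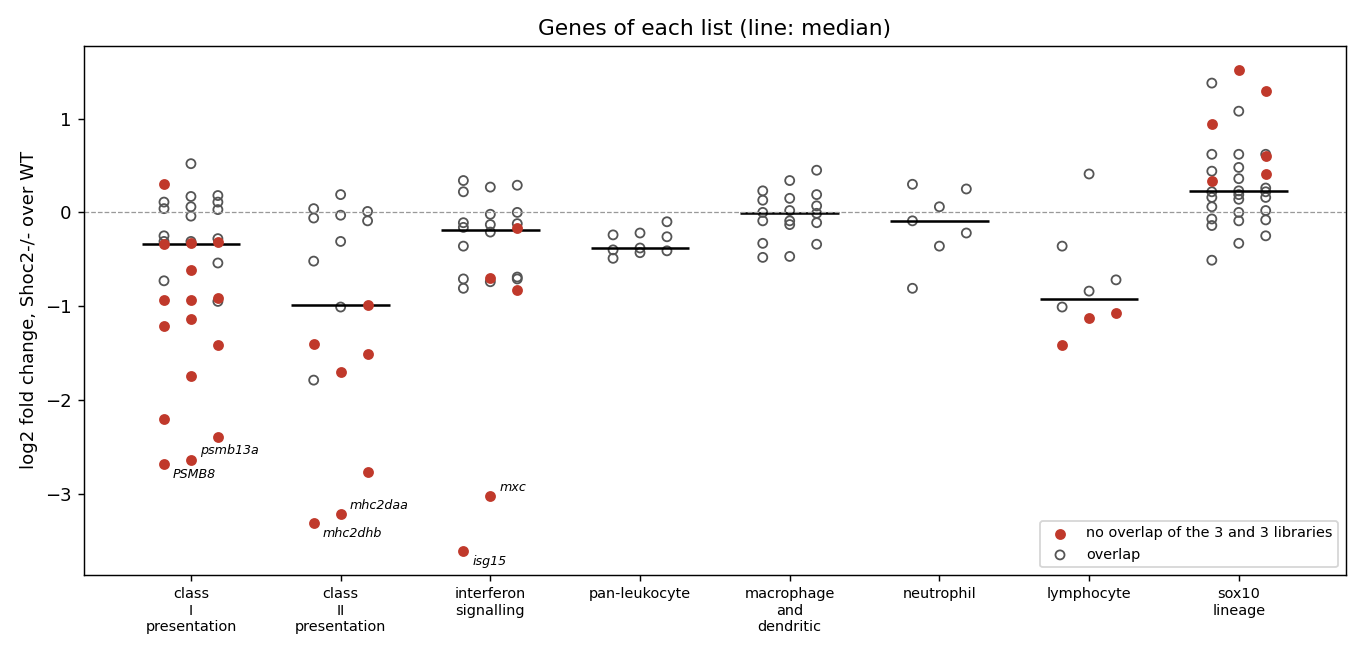
Log2 fold change of Shoc2-/- over WT for each tested gene of 8 lists, without the 4 members; filled points have no overlap between the 3 mutant and 3 WT libraries and lines are medians. Points below -2 occur in the class I, class II and interferon lists. Among them are psmb13a and mhc2dga, which passed the filter through WT only. Pan-leukocyte, macrophage and neutrophil genes all lie above -1, while lymphocyte genes reach -1.41.

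Genes most like the 4 in profile were ranked among the 16694 genes averaging 50 normalized counts or more. Over the 6 libraries, the highest Pearson correlations with their mean standardized log2 profile were those of PSME2 (0.998), SMOC2 (0.994), UBE2Z (0.992), mxc (0.989) and si:ch211-256a21.4 (0.988). All 5 were lower in mutants without overlap, which the choice of the 4 genes makes likely. They differed in size, from a log2 fold change of -0.25 for UBE2Z to -3.03 for mxc. By deviations from the genotype means alone, DGCR2 (0.999), SDR16C5 (0.999), KICS2 (0.997), tlcd3a (0.996) and PTGER4 (0.995) came first. With 6 libraries, 78 of the 16694 genes passed 0.95 on this measure.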

How the data were processed

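RNA was measured in 3 Shoc2-/- and 3 WT libraries of sorted cells. The deposited table holds a signal per Ensembl gene, normalized counts made by the authors: in each of the 6 columns, 100% of values were whole multiples of 1 step, to within 0.001 reads, so dividing by that step returned the reads. Totals were 20088591 to 21802683 reads. GRCz11, FastQC 0.11.7, STAR 2.6 and Cuffnorm are named in the submitters' processing notes, and the deposited counts are labelled as HTSeq counts. Counting options and strand are not given in the sources used here. No column was left without a sample. A reference table paired 25324 of 27726 identifiers with symbols. Some entries carry capital-letter symbols without a paralogue suffix, so list symbols were matched in any case and then without suffix; 17 of 169 were not matched. RefSeq's GRCz12tu table was used only for names and gene order.

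Genes with at least 10 normalized counts in at least 3 libraries were compared on log2(normalized count + 1) with limma 3.58.1 (R 4.3.3, mean-variance trend, no covariates), adjusted by Benjamini-Hochberg over all genes at 0.05. Fold changes on this scale understate low genes. edgeR 4.0.16 and DESeq2 1.42.0 on recovered reads, other pseudocounts, filters and scalings, the replicate block and leaving out each library were alternatives. The main limma fit, the replicate block, edgeR and DESeq2 were tried on simulated data, and the other alternatives were not. Floors of 3 reads cover counting error only. The 4 genes and all lists were chosen with earlier results of these data known. Named were the 4 genes, a fixed set (shoc2, sox10, ptprc, mpeg1.1, ciita, nlrc5, tap1), and the 5 genes most like the 4 in profile. The 4 smallest p-values were also named in the class I, class II, interferon, lymphocyte and sox10 lineage lists. In the pan-leukocyte, macrophage and dendritic, neutrophil and other tissue lists, not all of these were named. Other genes, and the roles used to group lists, were picked after values were seen. mpx, on the fixed set, was not matched.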

Additional observations from a re-analysis of the deposited data

How the results depend on the processing

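All 4 genes were lower in Shoc2-/- under all 15 alternatives run for each. They were picked as lower in mutants and their groups did not overlap, so nothing is read from that direction. Leaving out each library gave log2 fold changes from -2.78 to -2.23 for b2m, -4.69 to -3.53 for cd74a, -3.42 to -2.65 for cd74b and -2.52 to -1.89 for mhc2dab. The number of genes called across all genes, 1 with limma, was 3 without a filter, 0 in edgeR (1232 at an unadjusted p under 0.05), 155 in DESeq2 and 0 to 4 with a library left out (4 without WT replicate 2). With the replicate number as a block it was 0 (906 unadjusted). Same-numbered libraries did not deviate together (correlations -0.202, -0.029 and -0.092), so equal numbers are not taken as pairs. Differently numbered libraries of the 2 genotypes correlated between -0.229 (Shoc2-/- replicate 3 with WT replicate 2) and 0.311 (Shoc2-/- replicate 3 with WT replicate 1). What these share was not tested. The block changed no other call. Of the presentation and interferon genes, limma called 0 and DESeq2 called 16. DESeq2 called 14 without the 2 genes that passed the filter through WT only. With a library left out, limma called 0 to 1 (1 without WT replicate 2). Genes of these lists without overlap and lower numbered 27, 25 without the 2 genes that passed the filter through WT only (left out after seeing the data), and 27 to 40 with a library left out; over all genes 1081 became 1866 to 2421, since fewer libraries overlap less often. Leukocyte genes without overlap and lower numbered 3, and were 1 among genes averaging 50 normalized counts or more and 3 to 13 with a library left out. The pan-leukocyte ratio ranged from 0.647 to 0.967 with a library left out; no call was possible, since the smallest exact p is 0.1 with 3 against 3 libraries and 0.2 with 1 left out, which was the value without Shoc2-/- replicate 2. The log2 fold change of shoc2 lay between -0.57 and -0.39 with a library left out, and shoc2 passed the adjusted threshold under no alternative. Beyond that, the cause was not tested. Depth limits nlrc5, mhc1uba and mhc2dgb, whose mutant libraries hold at most 3 reads each.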

Other observations

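Of 32 sox10 lineage genes tested, 0 passed limma's adjusted threshold, 7 were higher and 0 lower at an unadjusted p under 0.05, edgeR called 0 and DESeq2 called 3, all higher in Shoc2-/-. The median log2 fold change was 0.23. The 4 smallest p-values belonged to cartilage genes. The COL2A1 entry ENSDARG00000069093, a collagen of cartilage matrix, had 287056, 373858 and 314164 normalized counts in Shoc2-/- against 198299, 130639 and 183504 in WT (limma adjusted p 0.336). MATN1 and acana, which encode matrix proteins of cartilage, averaged 34919 ± 11291 and 14608 ± 6087 in Shoc2-/-, against 14659 ± 6055 and 5345 ± 2701 in WT (SD, n = 3 each). The SOX9 entry ENSDARG00000003293, a transcription factor of cartilage, averaged 10931 ± 1374 in Shoc2-/- and 7251 ± 1499 in WT. The other SOX9 entry, ENSDARG00000043923, differed less, at 1548 ± 198 in Shoc2-/- and 1235 ± 214 in WT (log2 fold change 0.33). Of 14 genes of other tissues, 1 was lower (krt5, a keratin of skin) and 1 higher (ins, which encodes insulin) at an unadjusted p under 0.05, and none passed the adjusted threshold in limma, edgeR or DESeq2.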
